A study of Mus musculus with 3 samples.

Results

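Immediate early genes are transcribed within minutes of a growth signal, without new protein synthesis. Serum and growth factors reach many of them through the ERK kinases, which act on serum response factor and its Elk partners at a DNA element called the CArG box. The products are mostly transcription factors, among them the EGR zinc finger proteins, which bind GC-rich sites. The genes described here are Egr1, Egr2, Egr3, Ier2, Ier3, Ier5, Srf, Nr4a1, Klf6 and Myc, 10 of the 22911 genes named on the arrays. They were selected on earlier results of these same arrays, so their differences are a description and support nothing further. Their probes were found through the accession that the array files give for each probe.

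Expression in Hepa1c1c7, a line of mouse hepatoma cells, was compared to examine what follows overexpression of Mst1r (a receptor tyrosine kinase, also called RON) or Slpi (a secreted protease inhibitor). The 3 groups were cells given the Empty, the Mst1r or the Slpi vector, each 1 sample on 1 single-colour Agilent array. The cells were transfected with open reading frame clones or the pCMV6 empty vector and cultured in serum-containing medium. Gene expression was examined the next day, so the arrays do not read the first minutes after a growth signal. All 3 samples share the cell line and the transfection reagent, and no untransfected cells were compared. Since a group held 1 array, the groups could not be tested against each other and every difference below lacks a check by replicates. Precision is limited by the number of arrays, and both vectors were set against the same Empty array.

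Of the 56605 probes, between 46.7% and 48.5% were well above background on each array, and no spot was saturated. The only Mst1r probe had processed signals of 4.15, 4.08 and 3.70 on the Empty, Mst1r and Slpi arrays and was well above background on none of them. The brighter Slpi probe had 6459, 3843 and 6680, a log2 difference from Empty of 0.13 ± 0.13 on the Slpi array. Neither transfected gene therefore stood out on the array that carries its name, and whether these probes can read the transfected sequences was not tested. The paper reports overexpression of Mst1r in transfected Hepa1c1c7 cells by real-time PCR, which was not examined here. Below, "Mst1r array" and "Slpi array" mean the arrays so labelled. Of 9 hepatocyte markers, 4 (Alb, Afp, Krt8 and Krt18) had a mean processed signal over 50 and were well above background on all arrays, while Hnf4a was not above background on any. Of the markers of other cell types, 1 of 5 for leukocytes (Cd3e), 0 of 3 for endothelium and 3 of 4 for fibroblasts had a mean over 50.

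The promoters are shown first because the CArG box is the element at which serum response factor acts. RefSeq promoter windows (GRCm38.p6, 250 bases before to 50 bases after a start site) were found for Egr2, Ier3, Ier5, Srf, Nr4a1 and Klf6, 6 of the 10 genes. Egr1, Egr3, Ier2 and Myc were not analysed here in this respect. A CArG box, 10 bases with 6 positions of A or T between CC and GG, was present in 2 of the 6 genes, Egr2 and Srf, against 488 of 27025 genes (1.81%) in the table. The 250 bases before the start are printed 5′ to 3′ on the transcribed strand for these, and for Zfp36, a further immediate early gene taken up below, with the CArG boxes in capitals.
Egr2, chr10:67537619-67537868, plus strand: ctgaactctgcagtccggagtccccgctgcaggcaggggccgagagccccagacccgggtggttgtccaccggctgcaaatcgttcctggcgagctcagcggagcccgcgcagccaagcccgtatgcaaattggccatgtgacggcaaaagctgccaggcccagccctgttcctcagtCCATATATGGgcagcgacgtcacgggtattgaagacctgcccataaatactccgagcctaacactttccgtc
Srf, chr17:46556163-46556412, minus strand: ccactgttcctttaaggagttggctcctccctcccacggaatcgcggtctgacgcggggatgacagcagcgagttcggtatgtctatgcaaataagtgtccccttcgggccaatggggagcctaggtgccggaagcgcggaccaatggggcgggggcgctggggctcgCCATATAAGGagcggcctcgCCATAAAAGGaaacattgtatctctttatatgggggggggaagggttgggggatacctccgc
Zfp36, chr7:28379229-28379478, minus strand: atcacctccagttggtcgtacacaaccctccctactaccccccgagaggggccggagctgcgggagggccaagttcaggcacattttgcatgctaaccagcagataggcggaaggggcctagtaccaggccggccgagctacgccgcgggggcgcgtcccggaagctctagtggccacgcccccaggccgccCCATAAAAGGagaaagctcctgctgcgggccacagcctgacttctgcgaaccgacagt

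The printed Egr2 window was chosen because its box has alternating A and T, and this box began 72 bases before that start site. A CArG box of any letters was present in 4 of the 5 promoters listed for the gene. Srf had boxes at 82 and 62 bases before its start, in the gene for the factor that binds this element. Searching both strands for a box with 1 departure allowed added Ier3, Nr4a1 and Klf6, but 21.1% of all 32851 promoters hold such a sequence. Ier5 had neither form. An EGR site, GCGTGGGCG or GCGGGGGCG, was found in Srf and Nr4a1 and in 3.47% of all promoters. None of the 6 genes held a CRE (TGACGTCA, in 1.79% of promoters) or an AP-1 site (TGACTCA, in 5.20%). These are matches of letters in a short window, and no binding was measured here.

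Egr1 and Egr2 were the members that differed most, and they did so on the Mst1r array alone among the 3. Egr1, the best known EGR factor of the growth response, had a processed signal of 790 on the Empty array, 2530 on the Mst1r array and 848 on the Slpi array. The Empty and Slpi arrays lay close together and the Mst1r array lay above them. After scaling each array to its 75th percentile, the log2 difference of Egr1 was 1.91 ± 0.13 between Mst1r and Empty, a 3.76-fold higher signal. The error is the SD of a difference expected from repeated spots of like brightness on 1 array, and covers no variation between cultures. Between Slpi and Empty the Egr1 log2 difference was 0.18 ± 0.14, and between Mst1r and Slpi it was 1.73 ± 0.13 (3.32-fold). Ordered from the highest log2 difference, Egr1 was number 92 of 11611 genes in Mst1r against Empty and number 1010 in Slpi against Empty. The Egr1 difference in Slpi against Empty changed sign between scalings of the arrays (-0.06 to 0.18), so no direction is given for it.

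Egr2, a related factor known from peripheral nerve myelination, was dim. Its processed signals were 27.6, 101 and 25.9 on the Empty, Mst1r and Slpi arrays, all flagged well above background. The log2 difference was 2.11 ± 0.62 for Mst1r against Empty (4.30-fold), -0.01 ± 0.84 for Slpi against Empty and 2.12 ± 0.62 for Mst1r against Slpi (4.34-fold). Its order in Mst1r against Empty was 82 of 11611. The error is wide because repeated spots in this range of brightness scatter more. With a background model that adds an offset to every spot (normexp), the Egr2 log2 difference of Mst1r from Empty was 0.99, just under 2-fold. Egr2 had a mean processed signal of 51.5 and so passed the minimum of 50 only through the Mst1r array. A gene that passes in that way had to differ.

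Egr3, the remaining EGR factor here, was not measured above background. Its 3 probes had processed signals between 3.54 and 4.44 and were flagged well above background nowhere, so no fold is given. Among the EGR genes the higher signal on the Mst1r array was thus read for Egr1, and for Egr2 with the limit given above. For Egr3 no direction can be read. Egr4, which is not a member, was also not above background, with processed signals of 3.77, 3.75 and 3.28. Nothing is read from this about the EGR family.

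**Figure D1:**
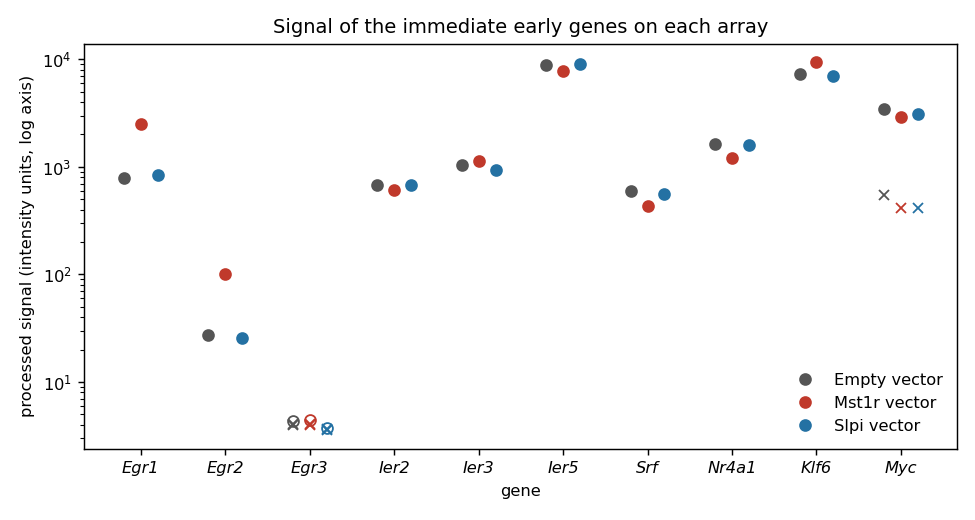
Processed signal (log axis, intensity units) of each member on the Empty, Mst1r and Slpi arrays, 1 point per probe and array. Filled circles are the brightest probe of a gene, crosses are further probes, and open circles and the crosses beside them at Egr3 are not well above background. Egr1 and Egr2 are higher on the Mst1r array, at 2530 and 101.

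Srf itself, the factor for which this response is named, was not higher on the Mst1r array. The processed signals of Srf were 594, 437 and 563 on the Empty, Mst1r and Slpi arrays, so the Mst1r array was the lowest. The scaled log2 difference of Srf from Empty was -0.21 ± 0.14 for Mst1r and -0.00078 ± 0.14 for Slpi.

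Among the other transcription factors, Klf6 was higher on the Mst1r array by less than 2-fold. Klf6, a zinc finger factor induced by growth signals, had processed signals of 7350, 9365 and 6935. Its log2 difference was 0.58 ± 0.13 for Mst1r against Empty (1.49-fold), -0.01 ± 0.13 for Slpi against Empty and 0.59 ± 0.13 for Mst1r against Slpi. Of all 11611 genes, the middle 90% lay between -0.44 and 0.46 in Mst1r against Empty, and Klf6 was number 417 from the highest.

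Nr4a1, an orphan nuclear receptor induced by many stimuli, had processed signals of 1617, 1216 and 1608, lowest on the Mst1r array. The scaled log2 difference of Nr4a1 was -0.18 ± 0.12 for Mst1r against Empty and 0.07 ± 0.12 for Slpi against Empty. Myc, the growth regulator, was read by 2 probes. The brighter Myc probe had processed signals of 3469, 2914 and 3095, with log2 differences from Empty of -0.02 ± 0.12 on the Mst1r array and -0.09 ± 0.12 on the Slpi array. The dimmer Myc probe had 548, 413 and 416, with log2 differences from Empty of -0.18 ± 0.14 and -0.32 ± 0.14. The Myc differences were small, and that of the brighter probe in Mst1r against Empty changed sign between scalings.

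Of the 3 IER genes, Ier3 was somewhat higher on the Mst1r array and Ier2 and Ier5 were not apart from Empty beyond the spot error. Ier3, which acts in cell survival and ERK signalling, had processed signals of 1045, 1131 and 932. Its log2 difference was 0.34 ± 0.12 for Mst1r against Empty, -0.09 ± 0.13 for Slpi against Empty and 0.43 ± 0.13 for Mst1r against Slpi. These lie within the middle 90% of all genes. Ier2, a nuclear protein, had processed signals of 680, 615 and 671, with log2 differences from Empty of 0.09 ± 0.14 on the Mst1r array and 0.06 ± 0.14 on the Slpi array. Ier5, which is linked to the heat shock factor HSF1, had processed signals of 8895, 7828 and 8978, with log2 differences of 0.05 ± 0.13 and 0.09 ± 0.13.

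**Figure D2:**
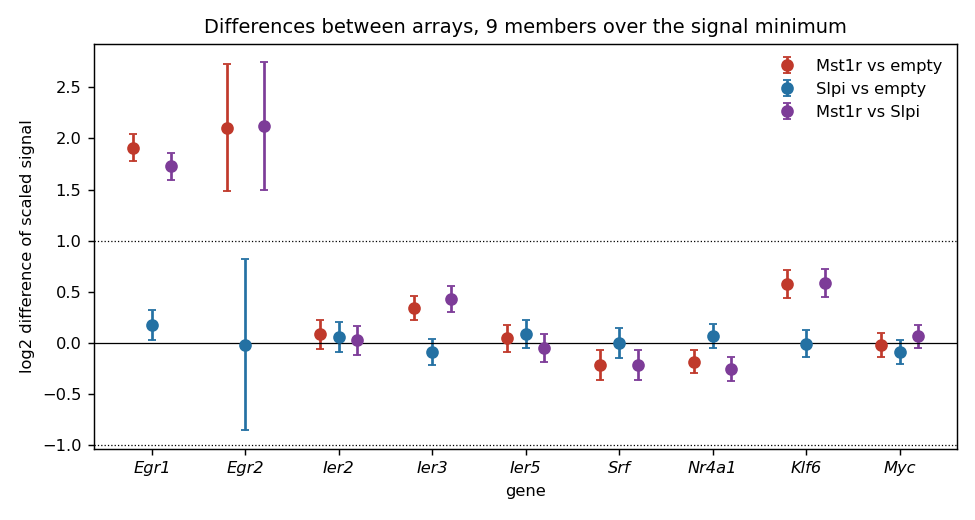
Log2 difference of the scaled signal for the 9 members over the signal minimum, in Mst1r against Empty, Slpi against Empty and Mst1r against Slpi. Points are single array pairs, bars are the SD expected from repeated spots, and dotted lines mark 2-fold. Egr1 (1.91) and Egr2 (2.11) lie above the 2-fold line with the Mst1r vector, and no member lies past it with the Slpi vector.

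Counted together, 2 of the 9 members over the signal minimum were at least 2-fold higher on the Mst1r array than on the Empty array, where 1.94% of all 11611 genes were. None was at least 2-fold lower, where 1.02% of all genes were. At 1.5-fold the counts of members were again 2 and 0, beside 3.57% and 2.64% of all genes. Between Slpi and Empty no member was 2-fold higher (0.904% of all genes) or lower (0.784%), nor 1.5-fold higher (1.43%) or lower (1.13%). Between Mst1r and Slpi 2 members were at least 2-fold higher (1.82% of all genes) and 0 lower (0.99%). At 1.5-fold there were 3 higher (3.56%), with Klf6 the addition, and 0 lower (2.92%). Nothing is read from these counts, since the members were chosen on the same contrasts.

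The median log2 difference of the members was 0.085 for Mst1r against Empty, -0.00078 for Slpi against Empty and 0.065 for Mst1r against Slpi. Over all genes it was -0.05, 0.0080 and -0.05, so the middle of the group was near that of the array. Without Egr1 and Egr2 the other 7 members had a median of 0.046 in Mst1r against Empty, from -0.21 to 0.58.

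Spots in rows 1 to 128 of the 384 rows carried stray signal. Of control spots whose probes are dark, between 2.68% and 4.01% there exceeded a signal of 50, against at most 2 of 1731 on any array in the other rows. The detected probes of the members lay in rows 137 to 348, outside that region. From row 129 on, 1.27% of 7479 genes were at least 2-fold higher in Mst1r against Empty and 1.14% in Mst1r against Slpi. Egr1 lay in row 348 and Egr2 in row 182.

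**Figure D3:**
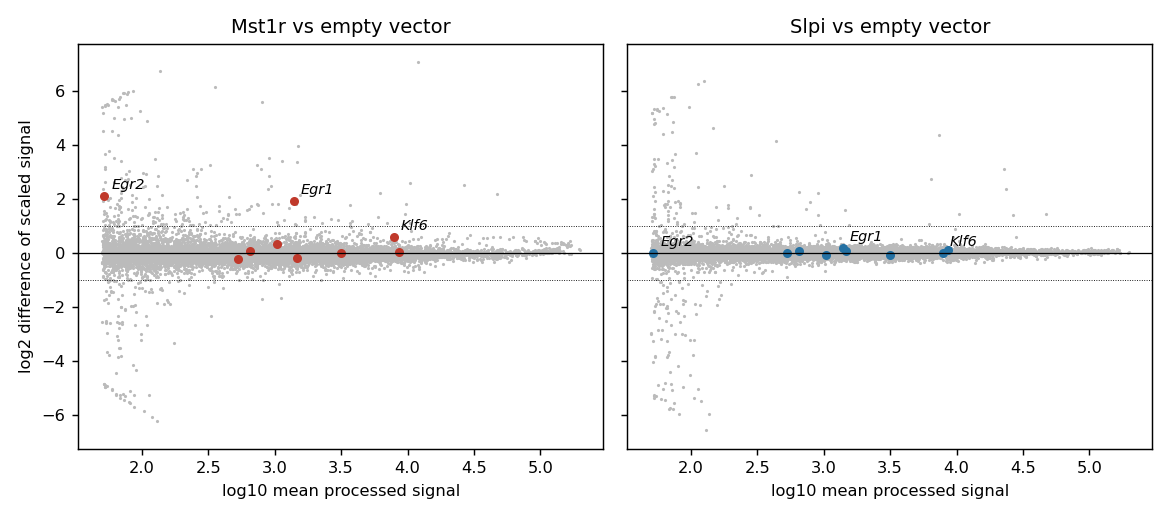
Log2 difference of the scaled signal against log10 mean processed signal for the 11611 genes over the signal minimum (grey) with the 9 members in colour, for Mst1r against Empty (left) and Slpi against Empty (right). Egr1 stands at 1.91 among genes of its brightness on the left and at 0.18 on the right.

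Genes that work with the members were described through lists of the same pathway. Of the SRF cofactors, 5 of 6 had a mean signal over 50, none was 2-fold apart, and the median log2 difference of Mst1r from Empty was -0.06. The widest difference was that of Elk1, an ERK-activated SRF partner. Its bright probe had processed signals of 128180, 141637 and 128745, a log2 difference of 0.37 ± 0.08, while its other probe gave -0.01. The Elk1 probes thus disagreed.

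Of the actin and contractile targets of SRF, 13 of 16 were over the minimum, and 1 was at least 2-fold higher on the Mst1r array (1.94% of all genes). It was Fhl1, a muscle LIM protein gene, with processed signals of 44.0, 97.8 and 42.9 and a log2 difference of 1.38 ± 0.62. Like Egr2, Fhl1 passed the signal minimum only through the Mst1r array and so had to differ, and with normexp its log2 difference was 0.69. Its probe lay in row 128, at the edge of the region with stray signal. The median of the list was -0.16 in Mst1r against Empty and 0.0022 in Slpi against Empty. In this list 7 of 13 genes with a promoter window held a CArG box (53.8%, against 1.81% of all genes with a window), among them Fhl1. The 13 genes over the signal minimum are a partly different set. Of these, 10 lay below a log2 difference of 0 in Mst1r against Empty, where the median of all genes was itself -0.05. Whether the box bears on the differences was not tested.

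Of the other immediate early genes, 23 of 26 were over the minimum, with a median log2 difference of 0.12 in Mst1r against Empty and -0.02 in Slpi against Empty. Zfp36 and Csrnp1 were at least 2-fold higher on the Mst1r array, as 1.94% of all genes were, and none was 2-fold lower. Of the 23 genes 12 lay above a log2 difference of 0 in Mst1r against Empty, and the lowest was Trib1 at -0.57 ± 0.12. Zfp36, which encodes the mRNA decay protein tristetraprolin, had processed signals of 236, 674 and 237, a log2 difference of 1.75 ± 0.22. As in Egr2, a CArG box precedes its start site, at 58 bases, but its probe lay in row 2, inside the region with stray signal, and its part in the result was not tested. Csrnp1, a nuclear protein gene, had processed signals of 1138, 2027 and 1126 in row 260, a log2 difference of 1.06 ± 0.12. The 2-fold call of Csrnp1 was lost without scaling (0.83), with spike-in scaling (0.96) and with normexp (0.98), and against Slpi the log2 difference was 0.999, just under 2-fold. Neither Csrnp1 nor Fos held a CArG box in its windows, which reach only 250 bases before a start site. Boxes further out could not be found. With 1 departure allowed the Fos window held a match, as 21.1% of all promoters do. Among the AP-1 genes all 7 were over the minimum, with a median of 0.40. Fos, a classical target of SRF, had processed signals of 160, 319 and 143 in row 253, a log2 difference of 1.22 ± 0.22. It was the 1 gene of that list at least 2-fold higher (1.94% of all genes). That call was lost without scaling (0.99) and with normexp (0.86).

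Genes over the signal minimum that are downstream of EGR or belong with MYC differed by less than 2-fold between Mst1r and Empty after 75th percentile scaling. Of the EGR corepressors and targets 8 of 10 were over the minimum, with a median log2 difference of -0.09 in Mst1r against Empty. Pdgfb, a growth factor gene with EGR sites in its promoter, had processed signals of 1002, 471 and 846, a log2 difference of -0.86 ± 0.14 (-1.09, past 2-fold, without scaling), from a probe in row 85, inside the region with stray signal. Its direction was opposite to that of Egr1. The MYC family and partners (8 of 11 over the minimum) had a median of -0.13 and the MYC targets (11 of 12) of -0.07. The widest differences of Mst1r from Empty there were those of Mxd1, a MYC antagonist (81.5, 52.7 and 44.3, log2 difference -0.40 ± 0.62), and of Cad, an enzyme of pyrimidine synthesis (4101, 2646 and 4184, log2 difference -0.40 ± 0.13). The Mxd1 probe lay in row 32, inside the region with stray signal, and a second Mxd1 probe, not above background, gave 0.54. A second Cad probe, dimmer, gave 0.69 ± 0.84. In Slpi against Empty no gene of these lists with a mean signal over 50 was 2-fold apart after 75th percentile scaling. Mxd1 (-0.80 ± 0.62) was at -1.04 with spike-in scaling, while its second probe, not above background, gave 0.22. The Mxd1 mean of 59.5 passed the minimum of 50 through the Empty array, its highest, so lower values elsewhere were partly built in. Below a mean of 50, Mycl and Acta1 were well above background on the Empty array alone. Their probes lay in rows 22 and 10, inside the region with stray signal.

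**Figure D4:**
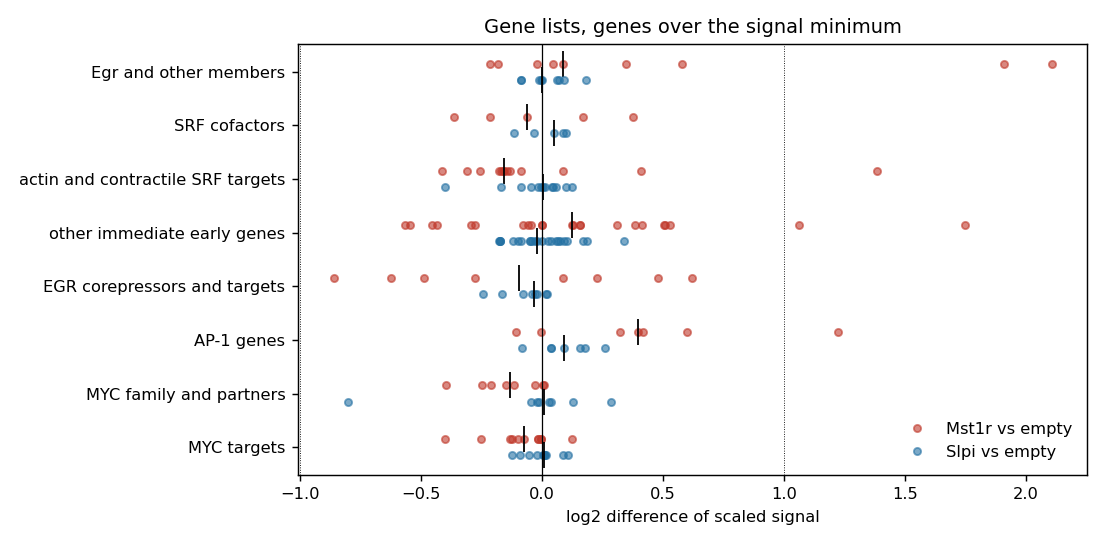
Log2 difference of the scaled signal for each gene over the signal minimum, by list, in Mst1r against Empty and Slpi against Empty. Each point is a gene, black ticks are list medians and dotted lines mark 2-fold. With the Mst1r vector, after 75th percentile scaling, Egr1, Egr2, Fhl1, Csrnp1, Zfp36 and Fos lie above 2-fold, while the list medians lie between -0.16 and 0.40.

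The genes most like Egr1 were sought by the Euclidean distance of their log2 differences of Mst1r and Slpi from Empty, over 3 arrays. The nearest 5 were Olfr656, Crem, Cyp4b1, Arid5a and AF067061. Arid5a, which encodes an RNA-binding protein, was the bright one among them. Its main probe in row 239 had processed signals of 578, 1725 and 573, a log2 difference of 1.81 ± 0.13, and its second probe gave 1.97 ± 0.62. Crem, a cAMP-responsive factor gene, had 37.2, 125 and 38.7, a log2 difference of 1.98 ± 0.62, while its other detected probes gave 1.09 and 1.01. The Olfr656, Crem and AF067061 probes lay in rows 9, 47 and 124, inside the region with stray signal. Olfr656 (1.88 ± 0.62), Cyp4b1 (1.95 ± 0.62) and AF067061 (2.02 ± 0.62) were dim, as was Crem. The errors of these dim genes exceed their distances from Egr1, which were 0.06 to 0.16, so their place as nearest is uncertain. With normexp their log2 differences of Mst1r from Empty were 0.92 (Olfr656), 0.93 (Crem), 0.97 (AF067061) and 1.06 (Cyp4b1), while Egr1 was at 1.85. With 3 arrays many genes can share such a pattern.

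The direction of each member was followed over 5 scalings of the arrays, since a scaling moves all log2 differences of a comparison together. In Mst1r against Empty, Egr1 ranged from 1.68 to 1.95 and Egr2 from 1.88 to 2.14. Klf6 ranged from 0.35 to 0.62 and Ier3 from 0.11 to 0.38. Srf (-0.44 to -0.17) and Nr4a1 (-0.41 to -0.14) were below 0 under every scaling. Ier2 (-0.15 to 0.12), Ier5 (-0.18 to 0.086) and Myc (-0.25 to 0.018) changed sign, so no direction is given for them. The median of all genes itself moved by -0.23 without scaling, and relative to it no difference changed.

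**Figure D5:**
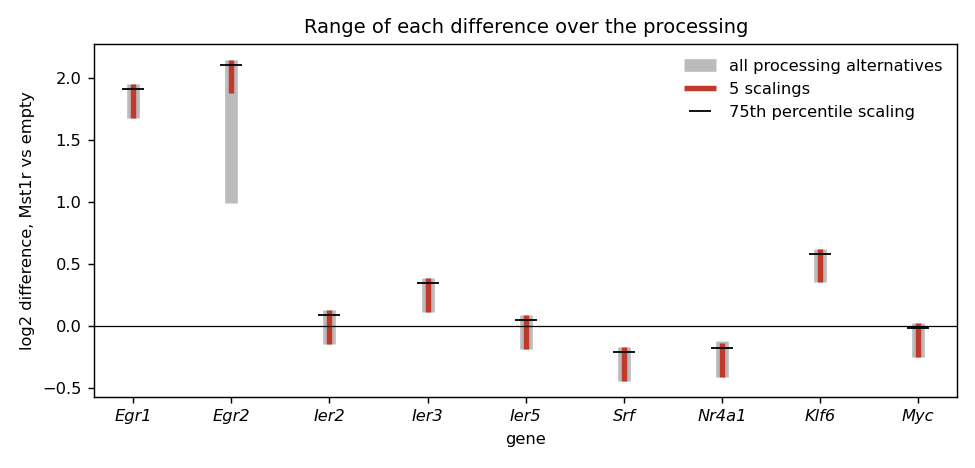
Lowest to highest log2 difference in Mst1r against Empty for each member over 5 scalings (red) and over all processing alternatives (grey), with the value under 75th percentile scaling as a black tick. Egr1 stays between 1.68 and 1.95 over the scalings, and Ier2, Ier5 and Myc cross 0.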

How the data were processed

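Total RNA (100 ng) of 3 transfected Hepa1c1c7 samples was labelled and hybridised to SurePrint G3 Mouse arrays. The deposited intensity values are the processed signals that the authors extracted from the scans, background subtracted and spatially detrended, without scaling between arrays. Feature Extraction 12.0.3.1 is named in the submitters' processing notes, and the methods name another version. The deposited flags mark spots well above background, saturated spots and outliers. A deposited intensity table of the series held the same signals. Per the file headers the array design used build mm9.

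Here log2 signals were averaged over the spots of a probe and scaled to the 75th percentile of each array. Probes were named through RefSeq accessions (25126 of 47837 matched). The brightest probe stood for a gene, and genes with a mean processed signal over 50 were counted at 2-fold and 1.5-fold. Spot SDs came from probes printed at least 10 times, among them 0.10 at log2 signals from 8 to 10. That value rests on only 9 pairs of probe and array, and the 0.08 at log2 signals from 10 to 12 on 12. The errors of members in this range, such as Egr1, are therefore themselves imprecise. No test was possible. The members and lists were chosen with earlier results of these data known. Named were all members, list genes at least 2-fold apart or else the one with the largest difference between Mst1r and Empty, the 5 genes nearest to Egr1, and Mst1r and Slpi. Alternatives were other scalings, normexp (limma 3.58.1, R 4.3.3, offset 50, on median spot and background intensity), the mean of detected probes, signal minimums and rows outside the region with stray signal. Python 3.11.15 and pandas 2.3.3 were used, and the steps were tested on simulated data.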

Additional observations from a re-analysis of the deposited data

How the results depend on the processing

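Of 267 member differences recomputed under the alternatives, 31 moved by more than the spot SD (16 without scaling, 12 with spike-in scaling, 2 with normexp and 1 with the mean of probes). With normexp, 1 member instead of 2 was at least 2-fold higher in Mst1r against Empty, since Egr2 fell to 0.99. The median of the members was -0.15 without scaling in Mst1r against Empty, -0.24 with spike-in scaling in Slpi against Empty, and -0.087 without scaling and 0.23 with no signal minimum in Mst1r against Slpi. With no minimum the undetected Egr3 enters that median. Crem, read only from rows 129 on, gave -0.054 in Mst1r against Empty, from a probe not well above background. No replicate could be left out, and no paired analysis was possible because each group held 1 array. Dim probes such as those of Egr2 and Egr3 limit what signal over background allows.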
